A study of Mus musculus with 6 samples.

Results

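The Slc38 genes encode sodium-coupled and related transporters of neutral amino acids, and 9 of them were followed here in the stria vascularis of Errb mutant and wild-type mice. They were taken as every probe set of the array whose platform annotation gave 1 gene symbol, that symbol being Slc38a1, Slc38a2, Slc38a3, Slc38a4, Slc38a5, Slc38a6, Slc38a7, Slc38a9 or Slc38a10. This gave 27 of 45037 probe sets, or 9 of 18193 genes. The family and its contrast of Slc38a5 with the other members were chosen by earlier results of this same comparison, the log2 differences between mutant and wild-type arrays. The differences of the members between genotypes are therefore a description: no p-value of a member is given, and the count of members passing a fit over all probe sets supports nothing.

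The wild-type group held 3 pools (replicates 1 to 3), and the mutant group held 3 pools with the same numbers, each pool made from 10 mice and run on 1 Affymetrix array. The mutation is a conditional knock-out of Errb, also named Nr3b2 or Esrrb, the gene of the estrogen-related receptor beta. The sources used here do not give the driver of the recombination. The sample labels name the stria vascularis as the tissue, while the design text speaks of inner ears. Only the label of wild-type replicate 1 states an age, postnatal day 3 to 5, and no strain is stated. Averaged over each marker list, wild-type arrays read 7.97 to 9.12 for marginal and 8.36 to 9.32 for intermediate cells of the stria. Basal cell markers read 10.05 to 10.96, and all these lists lay above the array medians of 6.07 to 6.95. So did spiral ligament fibrocyte (10.12 to 11.44), Schwann cell (8.43 to 9.29), macrophage (8.05 to 8.96) and endothelial markers (7.66 to 8.97). Neuron (5.35 to 5.99) and erythroid markers (5.17 to 6.33) read lower. These levels thus do not single out the stria. Nothing in the labels says that pools of 1 group came from separate litters or days, so any spread between them may be partly technical.

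Solute carrier family 38 members are named after the classical uptake systems they carry. System A transporters (Slc38a1, Slc38a2, Slc38a4) bring small neutral amino acids such as alanine and glutamine into cells together with sodium. System N transporters (Slc38a3, Slc38a5) couple the movement of glutamine, asparagine and histidine to sodium in exchange for protons, which lets them run in either direction. Slc38a7 and Slc38a9 act at lysosomes, where Slc38a9 reports arginine to the growth-controlling kinase complex mTORC1. Slc38a6 and Slc38a10 are less well characterised. The stria vascularis is the ion-transporting epithelium of the cochlear lateral wall, built of marginal, intermediate and basal cells around a dense capillary bed.

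Slc38a5 lies on chromosome X, and Slc38a1, Slc38a2 and Slc38a4 all lie on chromosome 15 in RefSeq's mouse annotation of GRCm38.p6. The stretch of 250 bases that ends just before the annotated start of Slc38a5 is shown because this gene carries the difference between genotypes, and that of Slc38a2 because this member had near equal values in them. Both are RefSeq sequences of GRCm38.p6, written 5′ to 3′ along the gene, with CG dinucleotides in capitals; the Slc38a5 window is chrX:8271131-8271380 on the plus strand and the Slc38a2 window is chr15:96699729-96699978 on the minus strand.
Slc38a5: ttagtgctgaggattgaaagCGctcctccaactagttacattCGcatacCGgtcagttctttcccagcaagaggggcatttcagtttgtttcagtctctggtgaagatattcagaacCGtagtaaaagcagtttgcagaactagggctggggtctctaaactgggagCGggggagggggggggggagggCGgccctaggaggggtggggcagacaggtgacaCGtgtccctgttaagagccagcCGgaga
Slc38a2: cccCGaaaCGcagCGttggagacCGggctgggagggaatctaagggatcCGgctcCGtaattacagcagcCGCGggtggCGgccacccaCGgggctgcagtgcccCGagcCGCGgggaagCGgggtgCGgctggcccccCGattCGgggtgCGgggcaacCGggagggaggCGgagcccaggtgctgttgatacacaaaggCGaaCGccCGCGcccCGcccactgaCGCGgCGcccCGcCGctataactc
The Slc38a5 window held 8 CG dinucleotides and the Slc38a2 window 30, against a median of 6 over 32851 such windows of the table. Of all windows, 57.0% had fewer than Slc38a5 and 94.1% fewer than Slc38a2. The binding sequence of estrogen-related receptors, TCAAGGTCA, was searched on both strands of the full windows, which also hold the first 50 transcribed bases. It was found in 0 of the 9 windows of the 7 members that the table holds, and in 0.423% of all windows. Its shorter core AAGGTCA, which every full match contains, was likewise found in 0 of these 9 and in 4.72% of all windows. These letters are thus not in these windows, which says nothing of binding elsewhere.

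Slc38a5 was lower in the mutant in each of the 3 pairs of same-numbered pools. Its single probe set read 6.60, 8.99 and 8.56 (log2 expression value) on the wild-type arrays of pairs 1, 2 and 3. On their mutant partners it read 5.61, 7.76 and 7.30. Wild-type replicate 1 lay below mutant replicates 2 and 3, so the 2 groups overlapped, whereas inside every pair the mutant array was the lower one. The pair differences, mutant minus wild type, were -0.99, -1.24 and -1.27, with a mean of -1.16 ± 0.15 (SD, n = 3), or a 2.24-fold lower level. Among all probe sets of the same array, Slc38a5 lay at the 59.8 to 82.8 percentile in wild type and at the 40.5 to 64.6 percentile in the mutant.

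The arrays are set side by side in pairs because deposited values shifted together within each number. After quantile normalization of all arrays the groups also overlapped, and Slc38a5 read 7.02, 8.57 and 8.59 in wild type and 5.97, 7.30 and 7.31 in the mutant. On the deposited scale 24 of 18193 genes, each taken by its best expressed probe set, had a lower mean difference than Slc38a5. Genes with a lower difference made up 0.621%, 0.137% and 0.165% of all genes in pairs 1, 2 and 3. In limma's paired fit over all probe sets, with the replicate number as a block and an adjusted p threshold of 0.05, 1 of the 27 member probe sets passed, that of Slc38a5, and 0.0822% of all probe sets passed in that direction. No member passed as higher, where 0.0111% of all probe sets did. Without the replicate block 0 members passed (0.00666% of all probe sets). With any 1 of the 3 pairs left out, which leaves 1 residual degree of freedom, 0 members passed as well. In those fits only 0 to 2 of all 18193 genes passed as lower and 0 to 2 as higher. These calls come from the contrast that chose the gene and are given only as a description.

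**Figure D1:**
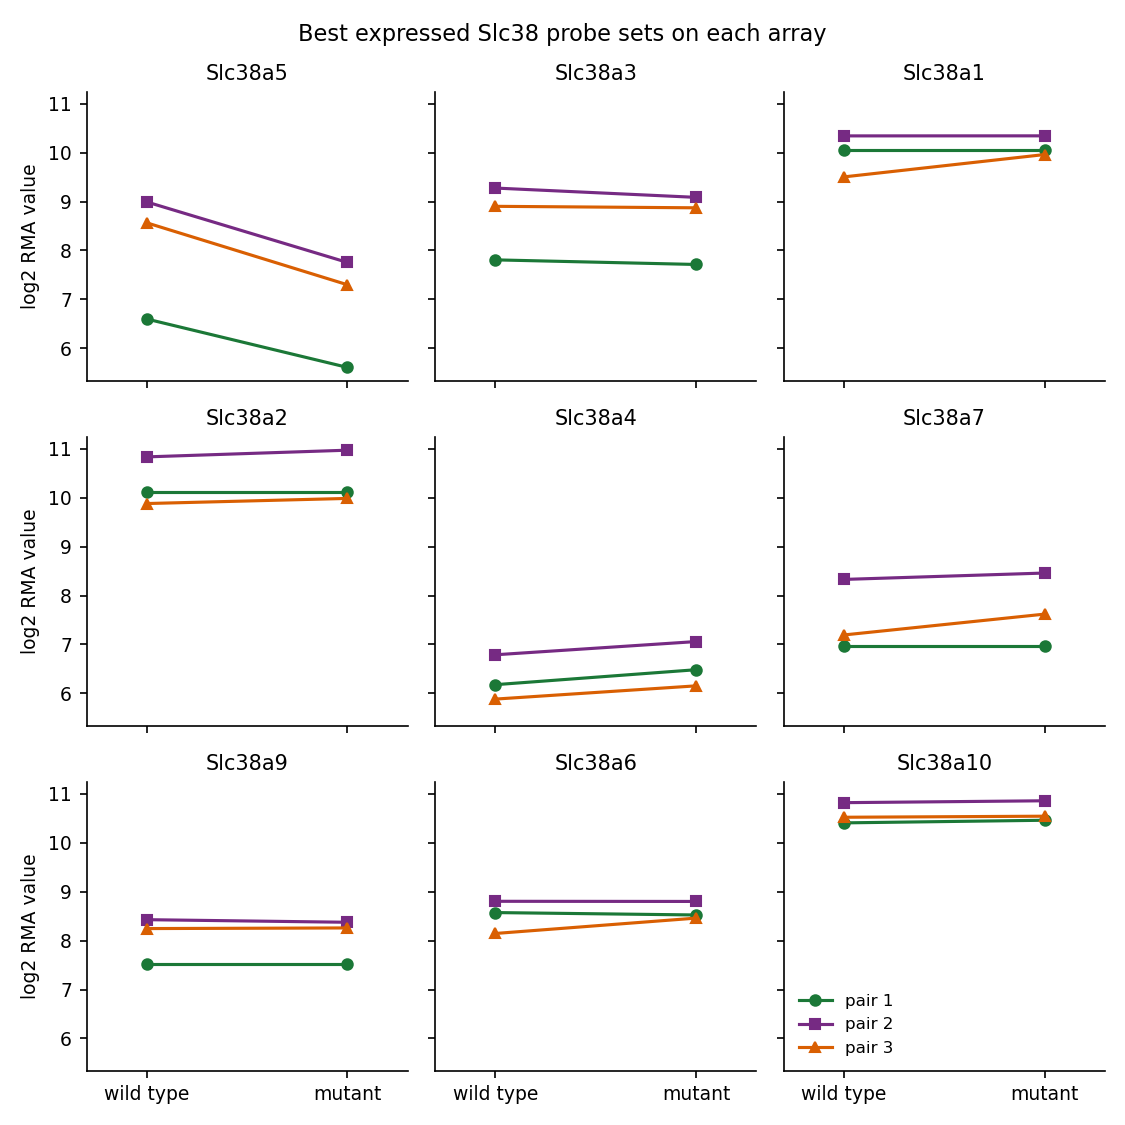
The log2 RMA value of the best expressed probe set of each of the 9 Slc38 genes is plotted for wild type and mutant, with 1 line for each pair of same-numbered arrays. All 3 lines of Slc38a5 go down, from 6.60 to 5.61, 8.99 to 7.76 and 8.56 to 7.30, while the lines of the other genes move by at most 0.46, that of Slc38a1 in pair 3.

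The array samples whole tissue, so fewer cells of a type and less RNA in each cell cannot be told apart. Markers of marginal cells, the potassium-secreting layer that faces endolymph, were also lower in the mutant. There 12 of 12 measured marginal cell markers had mean differences below 0, and their median was -0.81. Mean differences below 0 were also found in 12 of 12 endothelial, 11 of 14 intermediate, 6 of 7 basal and 6 of 7 erythroid markers. The count was 5 of 8 for fibrocyte, 3 of 8 for Schwann cell, 1 of 10 for macrophage and 1 of 12 for neuron markers. In the paired fit 4 of the marginal cell markers passed, where 0.148% of all genes passed in either direction. The list holds Kcne1, a gene already known to fall, and Esrrb, the mutated gene, so this count is a description. The log2 of the summed level of marginal cell markers ran from 13.22 to 14.14 in wild type against 11.98 to 12.92 in the mutant. Among intermediate cell and melanocyte markers 0 of 14 passed, with a median of -0.49 and a summed level of 13.14 to 14.08 in wild type and 12.69 to 13.42 in the mutant. Basal cell markers had a median of -0.18 with 1 of 7 passing, and a summed level of 13.66 to 14.71 against 12.81 to 14.05. Endothelial markers had a median of -0.13 (0 of 12 passing, summed level 11.55 to 12.85 against 11.25 to 12.79), and erythroid markers a median of -0.10 (0 of 7 passing, 8.41 to 10.00 against 8.34 to 9.50). The median over all genes was 0.004. Within pairs 1 to 3 the log2 sum of marginal cell markers differed by -1.24, -1.22 and -0.94. That of intermediate cell markers differed by -0.45, -0.66 and -0.54, and that of basal cell markers by -0.85, -0.66 and -0.56. Endothelial markers gave -0.30, -0.06 and -0.12, and erythroid markers -0.07, -0.51 and -0.44. The part of these cell types in the Slc38a5 difference was not tested.

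Other features differed between pairs. The Gapdh control read from its 3′ end minus that from its 5′ end, a measure of RNA integrity, was 2.28, 0.21 and -0.04 on the wild-type arrays of the 3 pairs and 2.57, 0.16 and 0.51 on their mutant partners. The same measure of Actb was 1.01, 0.52 and 0.18 on the wild-type arrays and 1.35, 0.47 and 0.49 on the mutant ones, so both controls had the higher value in the mutant in pairs 1 and 3. The Slc38a5 difference without pair 1 was -1.25, a mean that still holds pair 3, where both controls had the higher value in the mutant. Neuron markers had a median difference of 1.03 in pair 1, against 0.15 and 0.20 in pairs 2 and 3. The median of their mean differences was 0.57, with 11 of 12 above 0 and 0 passing in the paired fit. Xist, a transcript of the inactive X chromosome in females, differed by -0.23, 0.70 and 0.40 in pairs 1, 2 and 3. The part of the sex of the pooled mice and of RNA quality in the difference of the X-linked Slc38a5 was not tested. Esrrb itself, by its best expressed probe set, differed by -0.07 ± 0.21 (SD, n = 3), and no source used here places it against the deletion, so it checks nothing about the labels.

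The other system N gene, Slc38a3, did not share the difference in size. Its better expressed probe set read 7.81, 9.28 and 8.90 on the wild-type arrays of pairs 1, 2 and 3 and 7.71, 9.09 and 8.87 in the mutant. Each mutant array was the lower one of its pair by a small margin, and the groups overlapped almost wholly, with a mean difference of -0.10 ± 0.08 (SD, n = 3). A second, dimmer probe set of Slc38a3 differed by 0.03 ± 0.14. Slc38a5 minus Slc38a3, taken within each pair, was -0.89, -1.05 and -1.23, with a mean of -1.06 ± 0.17 (SD, n = 3).

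The system A genes had mean differences above 0 by their best expressed probe sets. Slc38a2, the member whose expression is known to rise when cells lack amino acids, read 10.12, 10.83 and 9.88 in wild type and 10.12, 10.97 and 9.98 in the mutant. Its difference was 0.08 ± 0.07, and its other 2 probe sets differed by 0.05 ± 0.15 and -0.08 ± 0.07 (SD, n = 3). Slc38a1, a glutamine transporter known from neurons, read 10.05, 10.34 and 9.50 in wild type and 10.05, 10.34 and 9.96 in the mutant. Here nearly all of the difference of 0.15 ± 0.26 came from pair 3. The second probe set of Slc38a1 also had its largest difference in pair 3, with -0.15, 0.25 and 0.52 in pairs 1 to 3.

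Slc38a4, an imprinted system A gene in mice, had the largest mean difference of the 8 paralogs by best expressed probe sets, and nearly the same one in every pair. Its better expressed probe set read 6.18, 6.79 and 5.88 in wild type and 6.48, 7.06 and 6.15 in the mutant. It was higher in the mutant by 0.31, 0.27 and 0.27, a mean of 0.28 ± 0.02 (SD, n = 3). The other Slc38a4 probe set did not share this direction and differed by 0.00, -0.08 and -0.49. That second probe set lay between the 14.1 and 38.5 percentile of its arrays, and the first between the 40.6 and 57.6 percentile.

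The 2 lysosomal members were near equal in the genotypes or varied by pair. Slc38a7, which exports glutamine and asparagine from lysosomes, read 6.98, 8.33 and 7.19 in wild type and 6.98, 8.46 and 7.62 in the mutant, a difference of 0.19 ± 0.22 (SD, n = 3). Pair 1 had exactly equal values and pair 3 the largest difference, 0.43. Slc38a9, the arginine sensor, read 7.52, 8.43 and 8.25 in wild type and 7.52, 8.37 and 8.26 in the mutant by its best expressed probe set. That is a difference of -0.01 ± 0.03, and the mean differences of all 7 Slc38a9 probe sets lay between -0.10 and 0.09.

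Slc38a6 and Slc38a10 were likewise close between genotypes by their best expressed probe sets. Slc38a6 read 8.57, 8.80 and 8.15 in wild type and 8.52, 8.80 and 8.46 in the mutant, a difference of 0.09 ± 0.20 (SD, n = 3). Slc38a10 read 10.41, 10.82 and 10.52 against 10.46, 10.86 and 10.54, a difference of 0.04 ± 0.02. Another, dimmer probe set of Slc38a10 departed from all the rest. It read 5.84, 8.37 and 8.98 in wild type and 5.91, 8.27 and 7.16 in the mutant, so that a difference of -1.82 in pair 3 stood beside 0.07 and -0.09 in pairs 1 and 2. The other 6 Slc38a10 probe sets differed by between -0.21 and 0.43 in pair 3, so this value was not shared by any of them.

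Across the 26 probe sets of the 8 paralogs, mean differences ran from -0.61 to 0.28 with a median of 0.03. All but 2 lay within 0.25 of 0, the exceptions being this dimmer probe set of Slc38a10 and the better expressed probe set of Slc38a4. Of the 78 single pair differences, 1 lay below -0.5, in pair 3, and 1 lay at or above 0.5, that of Slc38a1 in pair 3. Of all 27 member probe sets, 1 was lower by at least 0.5 in every pair, that of Slc38a5, against 0.309% of all probe sets. Counted by sign alone, 4 member probe sets were lower in all 3 pairs (8.41% of all probe sets) and 2 were higher in all 3 (12.1% of all). Besides Slc38a5 the lower ones were 1 of Slc38a3 and 2 of Slc38a9, all with mean differences of -0.10. Of the 7 genes with several probe sets, the mean differences had 1 sign in Slc38a1 and Slc38a6 and both signs in the other 5.

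Slc38a5 lay below the median of the 8 paralogs, each by its best expressed probe set, by 0.99 in pair 1, 1.26 in pair 2 and 1.45 in pair 3, counted in log2 units. The mean of this contrast was -1.23 ± 0.23 (SD, n = 3). The paralog median was 0.00, 0.02 and 0.19 in pairs 1 to 3. From pair 2 to pair 3 the contrast widened mostly with the paralogs, as Slc38a5 itself went only from -1.24 to -1.27. In pair 1 the paralog median of 0.00 was itself the difference of genes with exactly equal values. In pair 1, 13 of the 26 paralog probe sets had exactly equal values on both arrays, as did 34.2% of all probe sets, against 1 of 26 in each of the other pairs. Slc38a5 had no equal pair.

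**Figure D2:**
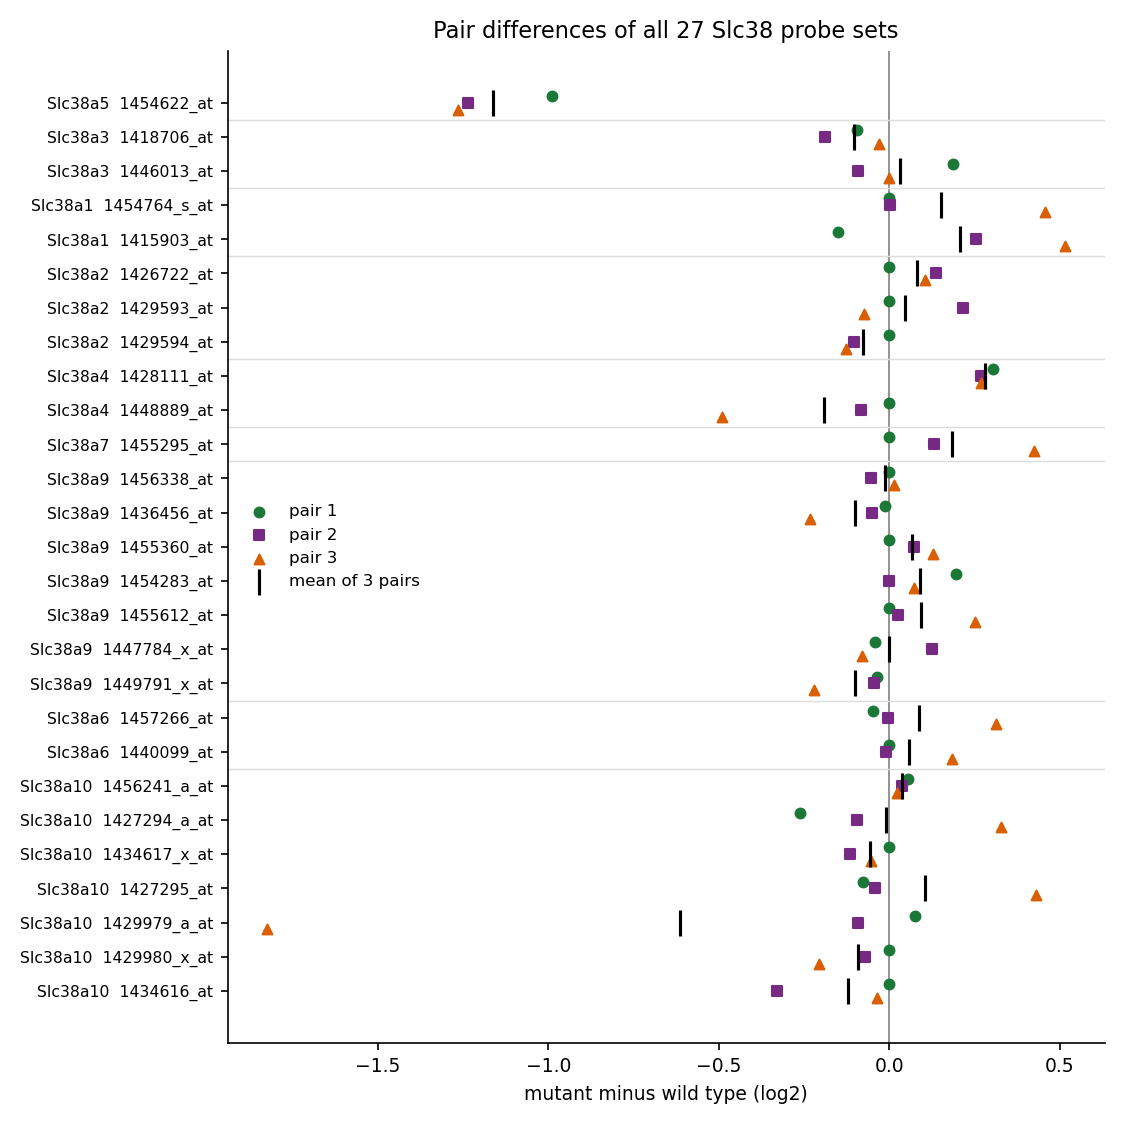
Mutant minus wild type (log2) is plotted for each pair and each of the 27 Slc38 probe sets, with a black bar at the mean of the 3 pairs. The 3 points of Slc38a5 lie between -1.27 and -0.99, and the only paralog point beyond them is that of the dimmer Slc38a10 probe set in pair 3 (-1.82).

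The gene whose 3 pair differences lay nearest to those of Slc38a5 was Tyr, the tyrosinase gene of pigment cells. Nearness was the root mean square distance between the 3 pair differences, computed over the best expressed probe set of all 18193 genes. Tyr differed by -0.87, -1.22 and -1.29 (distance 0.07). Bsnd, which encodes the chloride channel subunit barttin of marginal cells, differed by -0.84, -1.11 and -1.19 (distance 0.12). Ppp2r2c, a regulatory subunit gene of protein phosphatase 2A, differed by -0.87, -1.21 and -1.44 (distance 0.12). Cyp3a13, a cytochrome P450 gene, differed by -0.95, -1.06 and -1.13 (distance 0.13), and Cox7a1, a respiratory chain subunit gene, by -0.73, -1.02 and -1.35 (distance 0.20). Other probe sets of these genes differed less: those of Tyr by -1.02 ± 0.59 and -0.84 ± 0.40, and those of Ppp2r2c by -0.45 ± 0.27 and -0.17 ± 0.14 (SD, n = 3). Of the 5 genes, Cyp3a13 alone passed in limma's paired fit. With 3 differences per gene, nearness describes these arrays and no more.

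**Figure D3:**
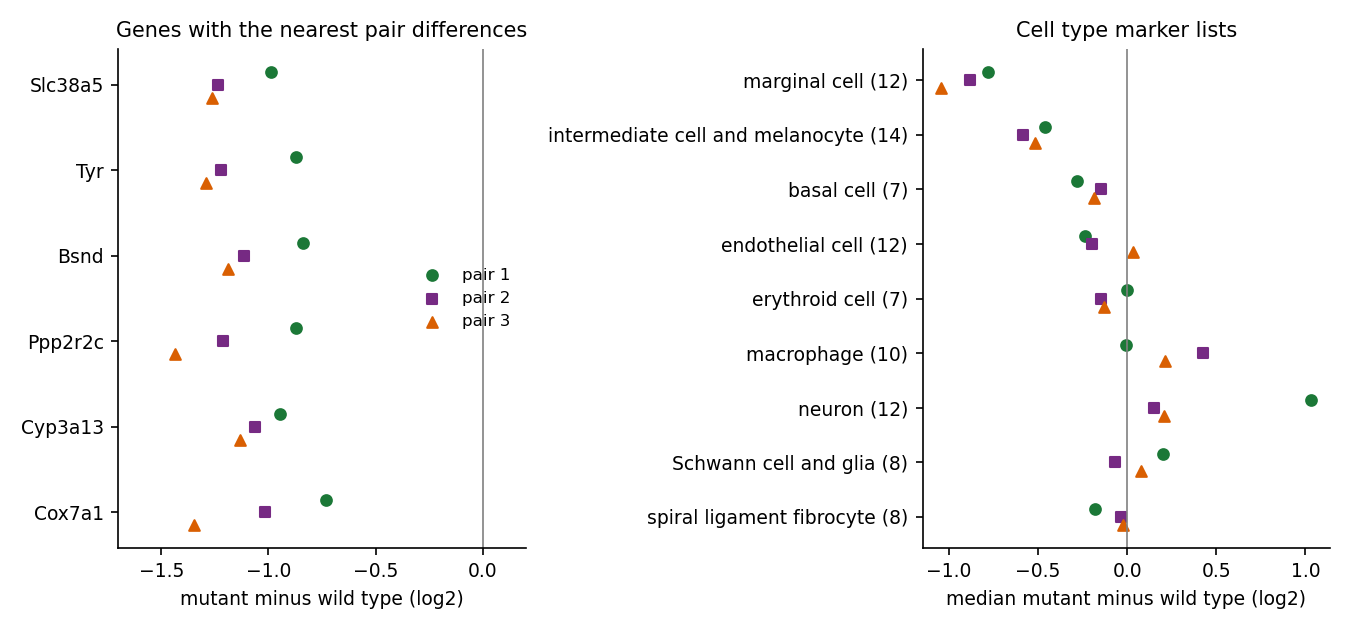
The left panel plots mutant minus wild type (log2) in each pair for Slc38a5 and the 5 genes with the nearest pair differences, and the right panel plots the median difference of each marker list in each pair, with the number of markers measured in brackets. The marginal cell list has the lowest medians, at -0.78, -0.88 and -1.04, and the neuron list has a high value of 1.03 in pair 1.

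The wider handling of amino acids was read from 5 lists of other genes, which held 131 measured genes of 141 listed, each counted once. In the paired fit 0 of the 131 passed in limma, where 0.148% of all genes passed, and 0 passed without the replicate block, where 0.0055% of all genes did. At an unadjusted p under 0.05 there were 13 of 131 (9.92%) in the paired fit, against 7.35% of all genes. Without the block there were 0, but the share over all genes is not at hand for that fit, so nothing is read from it. No list had a median beyond 0.03 in size.

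Other amino acid transporters of the plasma membrane had mean differences on both sides of 0. Of 41 measured genes of the Slc1, Slc3, Slc6, Slc7, Slc16, Slc36 and Slc43 families, 21 had mean differences below 0 and 20 above 0, from -0.26 to 0.37, with a median of -0.01. The smallest p-values were those of Slc7a9, a cystine transporter gene (-0.19 ± 0.05), and Slc36a1, a proton-coupled amino acid transporter gene (-0.20 ± 0.11), with limma adjusted p = 0.632 and 0.689. Single pairs departed further, as in Slc7a14 (1.13 in pair 1), Slc36a2 (1.07 in pair 1) and Slc1a2 (0.85 in pair 3), 3 genes named after their values were seen. The wild-type means of Slc7a14 (4.58), Slc36a2 (5.60) and Slc7a9 (4.70) lay below the array medians, while that of Slc1a2 was 10.52. The next 7 genes of neutral amino acid carriers were also picked after their values were seen. Slc1a5, a sodium-dependent exchanger of neutral amino acids, differed by -0.15 ± 0.05. Slc7a5, the large neutral amino acid exchanger, differed by -0.54, -0.45 and 0.21 in pairs 1 to 3, and Slc3a2, its heavy chain, by -0.20 ± 0.13. Slc1a4 (0.12), Slc6a19 (0.03), Slc7a6 (0.01) and Slc7a8 (0.04) had mean differences above 0. None of the 41 had a mean difference as large in size as that of Slc38a5.

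In glutamine and glutamate metabolism, Got1, the cytosolic aspartate aminotransferase gene, had the largest difference. It read 7.04, 9.51 and 9.18 in wild type and 6.37, 8.86 and 8.22 in the mutant. The mutant array was lower in each pair although the groups overlapped, and the difference of -0.76 ± 0.17 (SD, n = 3) did not pass (limma adjusted p = 0.124). It passed in 1 alternative, in which 1 value per gene was tested (adjusted p = 0.0447, within 0.0447 to 1 over 10 alternatives). Glul, glutamine synthetase, read 10.07, 11.64 and 10.90 in wild type and 9.72, 11.16 and 10.60 in the mutant. It differed by -0.38 ± 0.09 (adjusted p = 0.320), and its second probe set by -0.48 ± 0.31. The other 25 of the 27 measured genes of this list had larger p-values.

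The 3 remaining lists also had no gene that passed. In serine, glycine and one-carbon metabolism, Aldh1l1, a folate enzyme gene, differed by -0.45 ± 0.12 (limma adjusted p = 0.277), and its second probe set by 0.01 ± 0.05. Dld, a subunit gene of the glycine cleavage and pyruvate dehydrogenase complexes, differed by -0.20 ± 0.07 (0.632). Among genes of the amino acid response, which the transcription factor Atf4 turns on when amino acids run short, Vldlr, a lipoprotein receptor gene, differed by 0.32 ± 0.12 (0.442). The other probe sets of Vldlr had mean differences from -0.003 to 0.44. Cebpg, a partner of Atf4, differed by 0.18 ± 0.03 (0.659). This list had a median of 0.005, with 11 genes below 0 and 13 above 0. Among 35 genes of lysosomal sensing and mTORC1, Rragd, a Rag GTPase gene, differed by -0.27 ± 0.14 (0.555) and Nprl2, a member of the GATOR1 complex that restrains mTORC1, by -0.16 ± 0.10 (0.730).

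**Figure D4:**
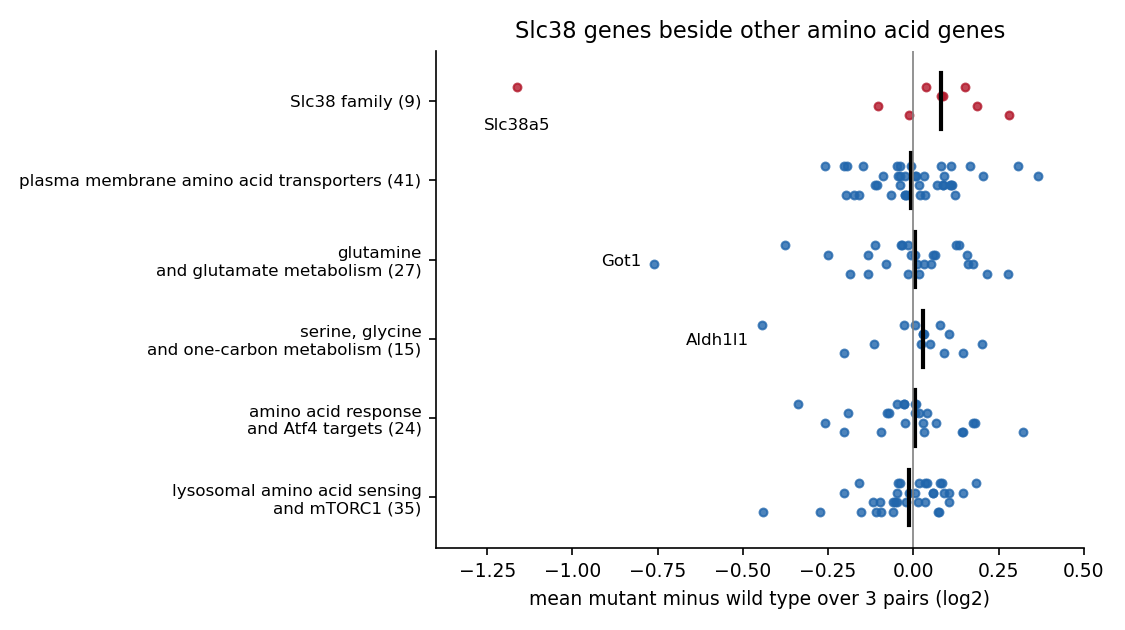
The mean difference between mutant and wild type over 3 pairs (log2) is plotted for each gene of the Slc38 family and of 5 other lists, with the number of genes in brackets, a black bar at the list median and points spread vertically for clarity. Slc38a5 at -1.16 lies below every other point, and Got1 at -0.76 is the next.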

How the data were processed

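Gene expression was measured in 6 pools of stria vascularis RNA, 3 per genotype. The authors deposited 1 log2 value for each probe set and array, summarised by RMA as the submitters' processing notes say, with no version or settings stated. Values run from 2.33 to 14.6 and were used as deposited. Signal over background is not given, and the number of arrays limits the precision.

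Replicate numbers in the labels paired the arrays: the correlation of their deviations from the genotype means was 0.879, 0.818 and 0.746 for the 3 pairs, where over 0.1 was required. Pairs may have been normalized separately, which could also raise these values, so levels are compared within pairs. Of 45101 probe sets, 64 control probe sets were left out. All others were fitted with limma 3.58.1 in R 4.3.3 on genotype and the replicate block (two-sided moderated tests). The p-values were adjusted by Benjamini-Hochberg over the 45037 probe sets, and 0.05 was the threshold. The fit was tested on simulated data with independent normal noise. These data lacked the exactly equal values of pair 1, so the test does not vouch for single calls here. A gene is represented by its probe set with the highest mean. All 27 member probe sets matched RefSeq by gene identifier, and 0 symbols differed.

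The text names every member, the 2 genes of each pathway list with the smallest p because none passed, Esrrb and the 5 genes nearest to Slc38a5. Xist and the other amino acid transporters given with values were added after their values were seen. The planned rule also named Kcne1, which fell by 4.32 on the log2 scale (limma adjusted p = 0.00373). The members and lists were chosen with earlier results of these data known. The lists held 5 pathways and 9 cell types; macrophage, Schwann cell and spiral ligament fibrocyte markers had medians of 0.13, 0.13 and -0.07.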

Additional observations from a re-analysis of the deposited data

How the results depend on the processing

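The mean difference of Slc38a5 was -1.20 after quantile normalization and -1.15 after median centring of each array, and it ranged from -1.25 to -1.11 when 1 pair was left out. Its contrast with the paralog median ranged from -1.35 to -1.12 when 1 pair was left out and was -1.17 when the probe sets of each gene were averaged. Among paralogs, averaging moved Slc38a4 to 0.05 and Slc38a10 to -0.11.

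The call of Slc38a5 rested on the pairing and on all 3 pairs: the number of Slc38 genes passing as lower went from 1 to 0 with no replicate block, and from 1 to a range of 0 to 0 when 1 pair was left out. Over all genes, 24 lower and 3 higher passed in the paired fit and 1 and 0 with no replicate block. When 1 pair was left out, 0 to 2 lower and 0 to 2 higher genes passed. With trend and robust options 34 lower and 6 higher genes passed, and with averaged probe sets 51 lower and 7 higher. At a threshold of 0.1 there were 50 lower and 9 higher. Averaging probe sets also gave 1 lower gene in glutamine and glutamate metabolism, Got1; it has a single probe set, so its difference was the same and fewer features were tested. The block changed no other call of the members and pathway lists. A filter on level and leaving out probe sets ending in _x_at or _s_at kept the Slc38a5 call. Signal over background is not given, which limits what can be read from probe sets with low values.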
